A study of Mus musculus with 81 samples.

Results

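The 2 sorted yolk sac populations labelled A1 and A2 were compared in Irf8 knockout embryos at embryonic day 9.5, to see which parts of the change from A1 to A2 were measured without this transcription factor. The members were the 3 A1 and 3 A2 knockout samples, 6 of the 80 samples of the series, chosen by their population and genotype labels. One of them, A2 sample 2, had 2 array runs, which were averaged, so the 6 samples came from 7 of the 81 arrays. The reference was the same step in wild-type embryos of the same stage, 3 A1 and 3 A2 samples, and the 3 samples of E8 erythro-myeloid progenitors, which were wild type, served as a level for comparison. The remaining samples of the series entered only the estimate of the spread. The sample descriptions call A1 and A2 yolk sac progenitor populations and the genotypes wildtype and Irf8KO. No label states the allele, the strain, the sort gates or any pooling of embryos. P-values rest on the spread between samples within groups, pooled over all 27 groups of the series and not taken from A1 and A2 alone. Without such labels this spread may be technical.

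Erythro-myeloid progenitors are Kit-positive cells of the yolk sac that give rise to red cells, megakaryocytes, granulocytes, mast cells and the macrophages of the embryo. In published work A1 cells are early macrophage progenitors that have gained CD45 and still carry some Kit, and A2 cells are their Kit-negative, Cx3cr1-positive descendants, which go on to seed tissues such as the brain. IRF8 binds DNA mostly with a partner such as PU.1, the product of Spi1, at composite ETS and interferon response sites, and it is known for promoting macrophage fates over granulocyte fates.

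All values are log2 signals of the brightest probe of each gene, so a difference of 1 is a factor of 2 in signal and precision depends on how many arrays a group has. The array medians of the A1 and A2 samples ran from 2.96 to 3.05, and a level near 3 is therefore that of a typical probe of little signal. A gene was called when its adjusted p in the limma fit was at most 0.05, and ± after a change is the standard error of that fit. Irf8 signal was 7.07, 6.87 and 5.90 in A1 and 9.26, 8.98 and 8.58 in A2 in the knockout, and 6.26, 7.05 and 6.80 in A1 and 8.60, 8.64 and 8.78 in A2 in the wild type. It was thus higher in every A2 than in every A1 sample of either genotype, with a knockout step of 2.33 ± 0.25 (adjusted p = 1.67e-10). This level does not check the genotype, since neither the deleted part of Irf8 nor the probe's position in it is known here. Kit, Cx3cr1 and Ptprc, which encodes CD45, are the genes by which such populations are usually sorted, and their values check the labels only. Kit was 8.18, 8.21 and 8.53 in A1 and 6.12, 6.52 and 7.26 in A2 in the knockout, Cx3cr1 was 7.26, 6.44 and 4.72 in A1 and 9.47, 9.77 and 9.11 in A2, and Ptprc was 8.34, 8.22 and 7.85 in A1 and 8.81, 8.74 and 8.73 in A2. Kit fell and the other two rose in both genotypes, the knockout rise of Ptprc being lost without knockout A1 sample 3. Kit was less low in knockout A2 than in wild-type A2, where it was 5.24, 5.21 and 4.69.

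Without Irf8, 323 of 17076 tested genes rose from A1 to A2 (1.89%) and 321 fell (1.88%). In the wild type 969 rose (5.67%) and 974 fell (5.7%), a split that became 1250 and 736 when each array was centred on its median. Of the 323 knockout rises, 236 (73.1%) also rose in the wild type and 4 fell there, and of the 321 knockout falls, 234 (72.9%) also fell and 3 rose. Seen from the wild type, those 236 were 24.4% of its rises and the 234 were 24.0% of its falls.

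For most wild-type genes that were not called in the knockout, the difference between genotypes was not called either. In simulated data, where 200 of 17076 genes were changed, the test of the difference called 18% of genes that differed by 1 log2 and 76% of those that differed by 2. Fewer genes were changed there than were called in either step of the data, so shares from the simulation are a guide only. A difference that was not called is therefore not read as equal steps. The difference of the 2 steps was called as higher in the knockout in 104 genes (0.609%) and as lower in 179 (1.05%). This count of 283 depended on the fit: it was 860 with array weights, 529 with only the A1 and A2 groups and 119 without 3 samples with high visceral endoderm markers. Of the 969 wild-type rises, 161 had a called difference towards a smaller knockout step, 133 of them without a call in the knockout, while 597 were called neither in the knockout nor in the difference. Of the 974 wild-type falls, 86 had a called difference towards a smaller knockout step, and 671 were called in neither. Most of the wild-type changes had the same sign in the knockout, namely 790 of the rises (81.5%) and 834 of the falls (85.6%). The median wild-type rise was 1.00 against 0.32 for the same genes in the knockout, and the median fall was -1.13 against -0.44. Over all tested genes the medians were -0.02 and -0.01. With genes chosen by the knockout step instead, the 323 rises had a median of 1.10 in the knockout and 1.11 in the wild type.

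**Figure D1:**
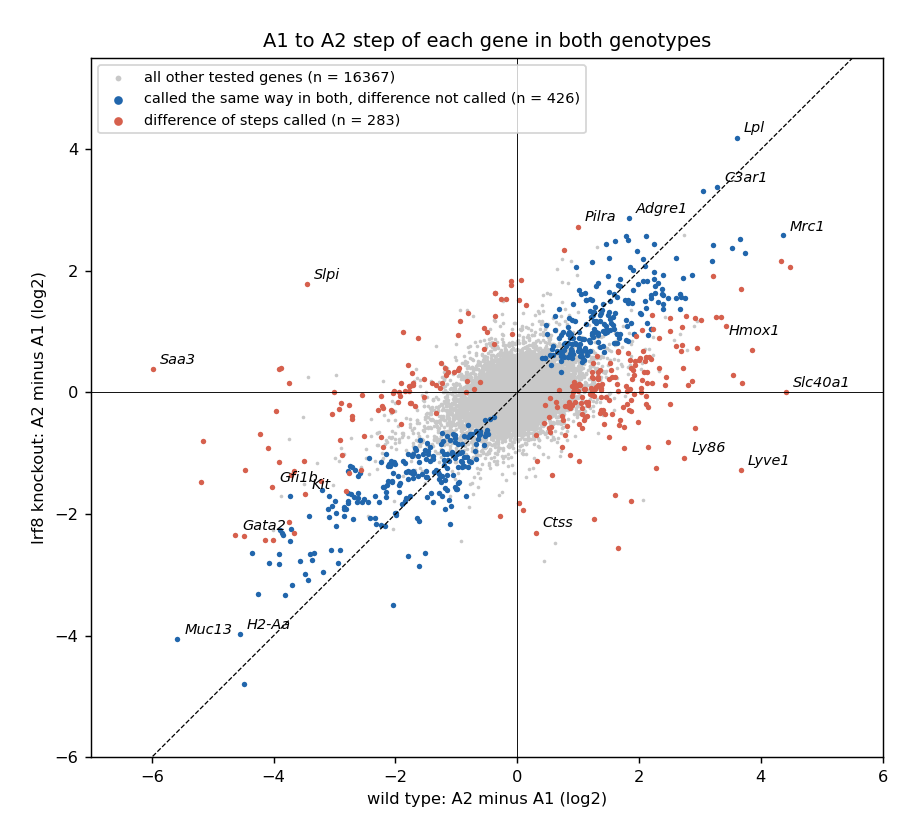
Change from A1 to A2 in the wild type (horizontal, log2) and in the Irf8 knockout (vertical, log2), 1 point per tested gene, with the dashed line where both steps are equal. Blue genes were called the same way in both genotypes without a called difference, and red genes had a called difference of steps. Lpl and C3ar1 lie near the line, whereas Slc40a1, with 0.00 in the knockout and 4.41 in the wild type, lies near the horizontal axis.

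The larger a wild-type change was, the more often it was called again without Irf8. Of the 22 genes that rose by 3 or more in the wild type, 17 rose in the knockout (77.3%), against 48 of 94 (51.1%) at a rise of 2 to 3 and 113 of 368 (30.7%) at a rise of 1 to 2. Of the falls, 42 of 65 (64.6%), 60 of 118 (50.8%) and 91 of 401 (22.7%) were called in the same classes. A called difference was also more frequent among the large changes, with 13 of those 22 rises (59.1%) and 26 of those 65 falls. The largest changes were thus the most often called both as kept and as altered in size, and several genes were both. In simulated data, too, larger changes were called more often, with 61% of knockout steps of 1 log2 and 99% of those of 2. The trend with size is therefore not read as a result about which changes were kept.

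**Figure D2:**
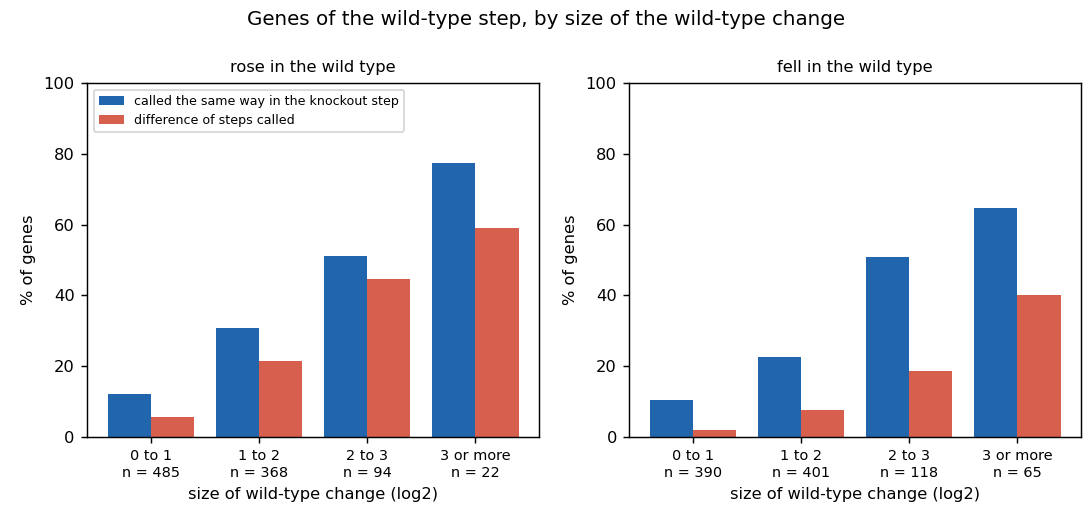
Share of the genes called in the wild-type step (vertical, %) that were called the same way in the knockout step (blue) or had a called difference of steps (red), by size of the wild-type change (horizontal, log2), with the number of genes under each pair of bars. Among rises the blue share runs from 12% to 77.3% and the red share from 5.57% to 59.1%.

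Genes of macrophage identity were among those that rose without Irf8. Of 35 tested core macrophage genes, 19 rose in the knockout, 0 fell and 16 were not called, with a median of 1.01. In the wild type 28 rose and 0 fell, with a median of 2.14, and the 19 knockout rises were all among these 28. The count of 19 was the same without each of the 12 yolk sac A1 and A2 samples in turn. The mean level of the list was 4.64, 4.54 and 4.42 in knockout A1 and 5.70, 5.64 and 5.37 in knockout A2. In the wild type it was 5.24, 5.47 and 5.69 in A1 and 7.58, 7.47 and 7.30 in A2. The knockout A2 samples therefore lay within or next to the range of wild-type A1, and every knockout A1 sample lay below it. The E8 progenitors had 3.47, 3.56 and 3.68. The difference of steps was called lower in 6 of the 35 and higher in 0, and 27 of the 35 were called lower in knockout than in wild-type A2.

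The largest kept rise was Lpl, the lipoprotein lipase that releases fatty acids from circulating lipoproteins. Lpl was 5.58, 4.40 and 4.70 in A1 and 9.36, 9.17 and 8.70 in A2 in the knockout, and 5.87, 5.88 and 5.82 in A1 and 9.47, 9.51 and 9.39 in A2 in the wild type. The groups did not overlap, and the steps were 4.19 ± 0.31 (adjusted p = 7.31e-16) and 3.60 ± 0.31 (adjusted p = 1.74e-14), with a difference of 0.59 ± 0.44 that was not called. C3ar1, the receptor of the complement fragment C3a, was 2.81, 2.79 and 2.58 in A1 and 6.61, 6.78 and 4.92 in A2 in the knockout, and 5.10, 5.39 and 5.75 in A1 and 8.97, 8.87 and 8.24 in A2 in the wild type. Its knockout samples were lower at both stages, yet its steps were 3.38 ± 0.38 and 3.28 ± 0.38 (adjusted p = 5.47e-10 and 2.98e-10), with a difference of 0.10 ± 0.53. Adgre1, which encodes the macrophage marker F4/80, was 3.72, 3.10 and 2.83 in A1 and 6.37, 6.24 and 5.66 in A2 in the knockout, and 6.42, 5.70 and 5.51 in A1 and 7.50, 7.90 and 7.72 in A2 in the wild type. Knockout A2 reached the level of wild-type A1, after a step of 2.87 ± 0.26 (adjusted p = 1.78e-12) from an A1 level that differed from the wild type by -2.66 ± 0.26 (limma, adjusted p = 1.35e-11). Lrp1, a large endocytic receptor, was 4.66, 4.18 and 3.79 in A1 and 6.68, 6.82 and 6.45 in A2 in the knockout. Its steps were 2.44 ± 0.22 and 2.25 ± 0.22 (adjusted p = 6.32e-13 and 9.00e-13). Gas7 rose by 2.58 ± 0.27 and 2.11 ± 0.27, Clec5a, a myeloid C-type lectin receptor, by 2.51 ± 0.39 and 1.82 ± 0.39, and Ccl9, a chemokine, by 2.58 ± 0.36 and 1.78 ± 0.36, knockout first.

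**Figure D3:**
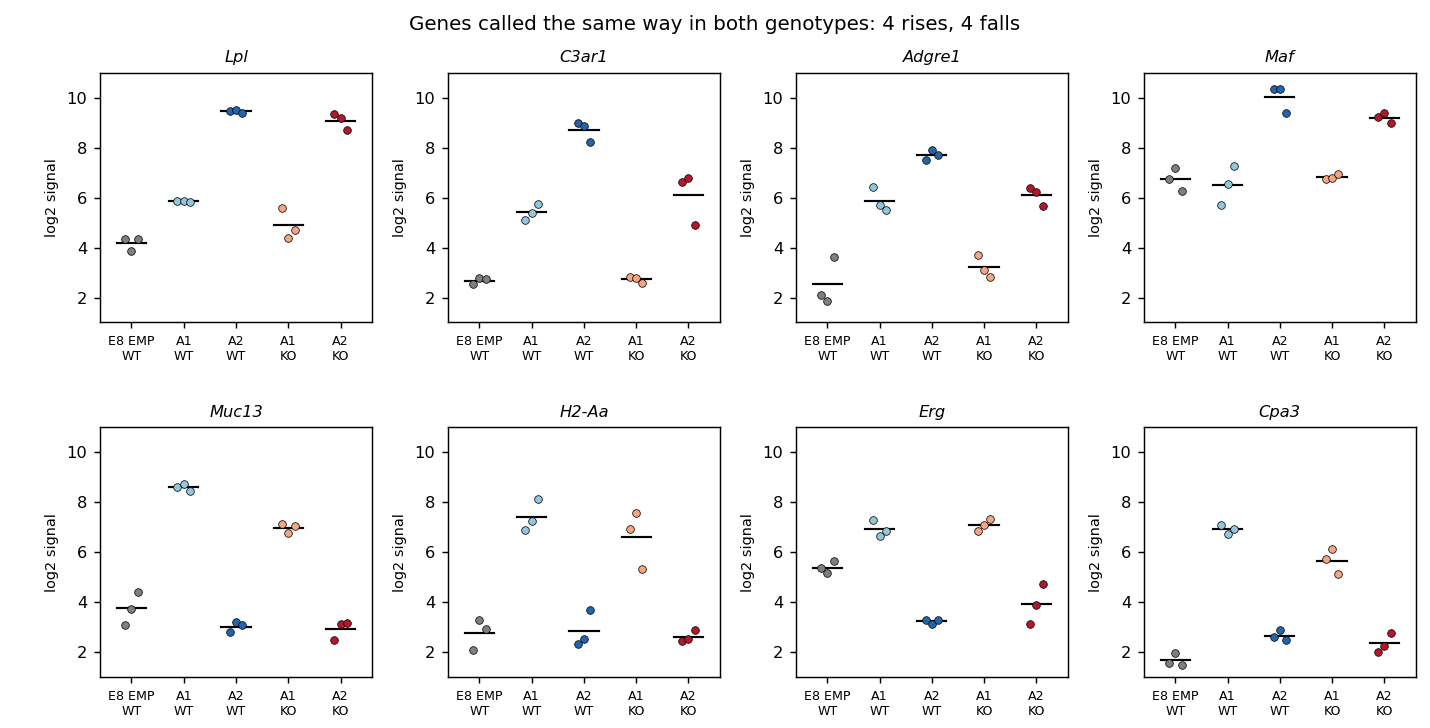
Log2 signal of 8 genes (vertical) in the samples of 5 groups (horizontal; EMP, erythro-myeloid progenitors; WT, wild type; KO, Irf8 knockout), 1 point per sample with the mean as a bar. Lpl, C3ar1, Adgre1 and Maf rose and Muc13, H2-Aa, Erg and Cpa3 fell from A1 to A2 in both genotypes, while C3ar1 and Adgre1 were lower in the knockout at both stages.

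A further set of macrophage genes rose in the knockout by a step whose estimate was smaller than in the wild type without a called difference. Mrc1, the mannose receptor, was 4.90, 3.98 and 4.35 in A1 and 7.40, 7.53 and 6.09 in A2 in the knockout against 9.63, 9.51 and 9.25 in wild-type A2. Its steps were 2.59 ± 0.38 and 4.36 ± 0.38, with a difference of -1.77 ± 0.54 (adjusted p = 0.0818). Stab1, a scavenger receptor, was 3.42, 3.22 and 3.59 in A1 and 6.29, 6.01 and 4.78 in A2 in the knockout, with steps of 2.29 ± 0.30 and 3.74 ± 0.30 and a difference of -1.45 ± 0.42 (adjusted p = 0.0538). Dab2, an endocytic adaptor, had steps of 2.52 ± 0.28 and 3.66 ± 0.28, and Trem2, a lipid-sensing receptor, 2.43 ± 0.39 and 3.22 ± 0.39. All 4 were called lower in knockout than in wild-type A2, with differences of -2.45 ± 0.38, -2.74 ± 0.30, -1.84 ± 0.28 and -1.90 ± 0.39 in that order (limma, adjusted p = 1.46e-06, 5.32e-11, 7.43e-07 and 0.00022). Knockout A2 sample 3 was the lowest of its group for C3ar1, Mrc1, Stab1 and Dab2.

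Transcription factors and receptors that drive the lineage were partly kept. Of 25 tested macrophage transcription factors 7 rose in the knockout and 0 fell, against 13 and 3 in the wild type, and 6 rose in both. The rises of both genotypes include that of Irf8 itself, whose signal in the knockout is not read as a kept change. Without A1 sample 3, A2 sample 1 or A2 sample 2 of the knockout the 7 became 4. Spi1, which encodes PU.1, was 7.79, 7.69 and 7.73 in A1 and 8.50, 8.78 and 8.32 in A2 in the knockout, and 7.80, 7.97 and 7.55 in A1 and 8.79, 8.81 and 8.43 in A2 in the wild type. The genotypes overlapped at both stages, and the steps were 0.80 ± 0.15 and 0.90 ± 0.15 (adjusted p = 0.000148 and 4.38e-06). Maf, a factor of mature resident macrophages, was 6.75, 6.77 and 6.93 in A1 and 9.21, 9.39 and 8.99 in A2 in the knockout, with steps of 2.38 ± 0.37 and 3.52 ± 0.37. Batf3 rose by 1.80 ± 0.40 and 2.31 ± 0.40. In contrast Id3, an inhibitor of basic helix-loop-helix factors known in resident macrophages, was 3.81, 4.15 and 3.94 in A1 and 3.36, 3.03 and 3.75 in A2 in the knockout, and 4.86, 3.79 and 3.71 in A1 and 7.17, 7.10 and 6.84 in A2 in the wild type. It was not called in the knockout (-0.59 ± 0.40, adjusted p = 0.765), rose by 2.91 ± 0.40 in the wild type, and had a called difference of -3.50 ± 0.56 (adjusted p = 2.98e-05). Its relative Id2 had steps of -0.73 ± 0.32 and 1.51 ± 0.32 and a difference of -2.24 ± 0.45 (adjusted p = 0.00121), which was not called when only the A1 and A2 groups were fitted.

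Of 23 tested myeloid growth factor and cytokine receptors, 7 rose and 2 fell in the knockout, against 11 and 5 in the wild type. The falls of both genotypes include that of Kit, whose values check the labels only. Csf1r, the receptor on which macrophages depend for growth and survival, was 6.21, 6.51 and 6.20 in A1 and 8.08, 7.97 and 7.74 in A2 in the knockout, and 6.91, 7.27 and 7.42 in A1 and 9.67, 9.74 and 9.31 in A2 in the wild type. It rose without Irf8 by 1.62 ± 0.18 (adjusted p = 3.20e-10) and in the wild type by 2.37 ± 0.18, with a difference of -0.75 ± 0.25 (adjusted p = 0.14), and its knockout levels were lower, with differences from the wild type of -0.89 ± 0.18 in A1 and -1.64 ± 0.18 in A2 (limma, adjusted p = 0.00044 and 5.74e-11). Il13ra1, a subunit of the interleukin 13 receptor, stood apart from it. It was 3.55, 2.82 and 3.06 in A1 and 3.40, 3.56 and 2.28 in A2 in the knockout, and 4.15, 4.31 and 5.01 in A1 and 6.70, 6.71 and 6.42 in A2 in the wild type, so that it rose by 2.12 ± 0.26 in the wild type alone and differed by -2.18 ± 0.36 (adjusted p = 5.52e-05).

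The loss of progenitor genes was measured without Irf8 for a part of the list. Of 27 tested progenitor transcription factors 9 fell in the knockout and 0 rose, and all 9 also fell in the wild type, where 19 fell and 0 rose. The median change was -0.42 against -0.92. Erg, an ETS factor of stem and progenitor cells, was 6.83, 7.07 and 7.33 in A1 and 3.14, 3.89 and 4.73 in A2 in the knockout, and 7.27, 6.65 and 6.86 in A1 and 3.27, 3.13 and 3.30 in A2 in the wild type, with steps of -3.16 ± 0.34 and -3.70 ± 0.34 (adjusted p = 2.66e-10 and 2.25e-13). The A1 and A2 samples did not overlap in either genotype, and knockout A2 was spread more widely than knockout A1. Gata2, a factor of progenitors and mast cells, was 7.01, 7.20 and 6.98 in A1 and 3.79, 5.07 and 5.30 in A2 in the knockout, and 8.02, 7.97 and 8.13 in A1 and 3.76, 3.56 and 2.87 in A2 in the wild type. Its fall was -2.35 ± 0.39 and -4.64 ± 0.39, with a called difference of 2.29 ± 0.55 (adjusted p = 0.0104). Gfi1b, a transcriptional repressor that acts in cells of the erythroid and megakaryocyte lineages, was 8.20, 8.39 and 8.94 in A1 and 6.83, 6.62 and 7.41 in A2 in the knockout, and 8.92, 8.86 and 8.76 in A1 and 4.01, 4.95 and 5.54 in A2 in the wild type. Its fall was -1.56 ± 0.40 (adjusted p = 0.00911) and -4.02 ± 0.40, with a called difference of 2.46 ± 0.56 (adjusted p = 0.00689). The difference of steps was called higher in 7 of the 27 factors. This count rested on single samples. It was 2 without wild-type A2 sample 3, 3 without wild-type A1 sample 1, and 4 without A1 sample 1, A2 sample 2 or A2 sample 3 of the knockout. The differences of Gata2 and of Kit were each lost without wild-type A2 sample 3 and without knockout A2 sample 3. That of Gfi1b was lost without A2 wild-type sample 1, and its knockout fall without A1 sample 3, A2 sample 1 or A2 sample 2 of the knockout.

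Some genes of other lineages that A1 cells expressed also fell in both genotypes, but monocyte markers did not fall as a list in the knockout. Of 21 tested megakaryocyte markers 9 fell and 0 rose in the knockout, against 13 and 0 in the wild type, and 7 fell in both. F2r, a thrombin receptor, had steps of -2.64 ± 0.35 and -4.35 ± 0.35, and Mfsd2b, a lipid transporter of platelets and red cells, of -2.66 ± 0.30 and -3.41 ± 0.30, knockout first. Of 16 tested mast cell and basophil markers 3 fell and 0 rose in the knockout, with a median of -0.13, against 6 and 0 in the wild type. One of the 3, Cpa3, the mast cell carboxypeptidase, was 5.73, 6.14 and 5.13 in A1 and 2.01, 2.26 and 2.76 in A2 in the knockout and fell, with a step of -3.32 ± 0.45 against -4.25 ± 0.45 in the wild type (adjusted p = 1.15e-07 and 1.74e-11). Muc13, a transmembrane mucin, was 7.13, 6.76 and 7.06 in A1 and 2.48, 3.11 and 3.18 in A2 in the knockout, and 8.61, 8.73 and 8.46 in A1 and 2.81, 3.19 and 3.07 in A2 in the wild type. Its groups did not overlap, and its steps were -4.06 ± 0.32 and -5.58 ± 0.32 (adjusted p = 1.09e-14 and 2.33e-21). S100a9, a granulocyte and monocyte protein, was 8.71, 8.56 and 8.71 in A1 and 5.71, 3.97 and 6.30 in A2 in the knockout and fell, with a step of -3.33 ± 0.96 (adjusted p = 0.0302), a call that was lost without any 1 of 5 of the 6 knockout samples. Of 32 tested neutrophil markers 3 fell and 1 rose in the knockout, and 1 fell without knockout A1 sample 2 or without knockout A1 sample 3. Of 19 tested monocyte markers 4 rose and 1 fell in the knockout, against 1 and 8 in the wild type. Their difference of steps was called higher in 5 and lower in 0. Without the 3 samples with high visceral endoderm markers 0 rose and 2 fell in the knockout, and the difference was higher in 2.

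Antigen presentation and B-cell genes were part of the kept fall. Of 11 tested MHC class II genes 6 fell in the knockout and 0 rose, against 8 and 0 in the wild type, and 5 fell in both. The wild-type count was 5 without A1 sample 2, A1 sample 3 or A2 sample 3 of the wild type. H2-Aa was 6.91, 7.55 and 5.34 in A1 and 2.45, 2.54 and 2.87 in A2 in the knockout, and 6.88, 7.23 and 8.15 in A1 and 2.34, 2.54 and 3.70 in A2 in the wild type. Its steps were -3.98 ± 0.36 and -4.56 ± 0.36 (adjusted p = 1.04e-12 and 6.69e-16), with a difference of 0.58 ± 0.51 that was not called. Cd79a, a part of the B-cell receptor, was 6.16, 6.95 and 4.01 in A1 and 1.98, 3.07 and 2.82 in A2 in the knockout and fell, with a step of -3.08 ± 0.44 against -3.43 ± 0.44 in the wild type. Of 22 tested lymphoid markers 6 fell and 0 rose in the knockout, against 11 and 0 in the wild type. Knockout A1 sample 3 was the lowest of its group for H2-Aa and for Cd79a, and the mean level of the lymphoid markers was 3.68, 3.70 and 3.05 in knockout A1 and 2.59, 2.86 and 2.97 in knockout A2. The part of B cells in these falls was not tested, and in sorted bulk samples fewer cells of a type and less RNA per cell cannot be told apart.

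Of the 35 core macrophage genes, 6 had a called difference of steps, all towards a smaller knockout step, and genes outside that list also rose in the wild type alone. Slc40a1, the iron exporter ferroportin, was 3.02, 2.19 and 2.32 in A1 and 2.58, 2.62 and 2.34 in A2 in the knockout, and 3.67, 4.05 and 3.93 in A1 and 8.36, 8.47 and 8.06 in A2 in the wild type. It stayed near the array median in all 6 knockout samples, so that the step was 0.00 ± 0.34 against 4.41 ± 0.34 (adjusted p of the difference = 1.47e-09). Lyve1, a hyaluronan receptor, was 4.63, 4.95 and 5.81 in A1 and 4.38, 3.38 and 3.79 in A2 in the knockout, and 4.03, 4.41 and 3.86 in A1 and 8.08, 8.06 and 7.17 in A2 in the wild type. The knockout step was not called (-1.28 ± 0.54, adjusted p = 0.286), the wild-type step was 3.67 ± 0.54, and the difference was -4.95 ± 0.76 (adjusted p = 9.95e-06). P2ry12, a purinergic receptor known as a microglial marker, was 3.23, 4.51 and 3.54 in A1 and 4.80, 4.35 and 4.22 in A2 in the knockout, and 3.36, 3.41 and 3.63 in A1 and 7.74, 7.31 and 6.89 in A2 in the wild type. All knockout A2 samples stayed below all wild-type A2 samples, and the difference of steps was -3.15 ± 0.54 (adjusted p = 0.000102). Timd4, a receptor for phosphatidylserine on dying cells, was 2.51, 2.97 and 2.48 in A1 and 2.03, 2.32 and 2.88 in A2 in the knockout, against 5.09, 4.70 and 4.37 in A1 and 7.11, 6.92 and 6.54 in A2 in the wild type. It was at 2.97 or below in every knockout sample, and the steps were -0.24 ± 0.40 and 2.14 ± 0.40 with a difference of -2.38 ± 0.56 (adjusted p = 0.00961). Igf1, a growth factor that macrophages secrete, was 4.22, 4.31 and 4.60 in A1 and 3.19, 3.81 and 3.45 in A2 in the knockout. It fell there, with a step of -0.90 ± 0.26 (adjusted p = 0.0281) that was not called without A1 sample 2, A1 sample 3, A2 sample 1 or A2 sample 3. It rose by 2.14 ± 0.26 in the wild type, with a difference of -3.04 ± 0.36 (adjusted p = 2.08e-08).

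Lyve1 and Gap43 were also high in the E8 progenitors, where Lyve1 was 7.79, 8.26 and 8.06 and Gap43, a growth-associated protein of neurons, was 6.44, 7.02 and 6.35. Both were lower in wild-type A1 and higher again in wild-type A2. Endothelial markers, among which Lyve1 is counted too, had a mean level of 5.15 to 5.29 in the E8 samples, 3.90 to 4.23 in wild-type A1, 4.14 to 4.57 in knockout A1, 3.60 to 3.65 in wild-type A2 and 3.69 to 3.88 in knockout A2. Their part in these values was not tested.

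Of 18 tested complement genes 4 rose and 1 fell in the knockout, against 6 and 4 in the wild type, and the difference was called lower in 2 and higher in 1. C1qa and C1qb encode chains of the first complement component, which macrophages make. C1qb was 3.16, 3.58 and 3.97 in A1 and 4.26, 3.53 and 3.50 in A2 in the knockout, and 6.67, 6.59 and 6.56 in A1 and 9.70, 9.62 and 9.13 in A2 in the wild type. It was low in all knockout samples, with steps of 0.19 ± 0.46 and 2.87 ± 0.46 and a difference of -2.68 ± 0.65 (adjusted p = 0.0124). C1qa had steps of -0.46 ± 0.31 and 1.68 ± 0.31 and a difference of -2.14 ± 0.43 (adjusted p = 0.00144). The difference called higher was that of C4b, a component of the classical pathway. It was 2.26, 2.58 and 3.00 in A1 and 2.23, 1.94 and 2.57 in A2 in the knockout, and 5.42, 5.51 and 5.09 in A1 and 2.26, 2.10 and 2.52 in A2 in the wild type, so that wild-type A1 stood above all others and the difference was 2.68 ± 0.54 (adjusted p = 0.00132). Ly86, the partner of the receptor CD180, was 3.78, 4.58 and 2.74 in A1 and 2.73, 2.63 and 2.55 in A2 in the knockout, and 5.32, 6.21 and 6.55 in A1 and 8.91, 8.74 and 8.63 in A2 in the wild type. Wild-type A1 already stood above all knockout samples of either stage, and the difference of steps was -3.80 ± 0.88 (adjusted p = 0.0073). Tlr4, the receptor for bacterial lipopolysaccharide, rose by 2.08 ± 0.25 in the wild type and had 0.33 ± 0.25 in the knockout, a difference of -1.75 ± 0.36 (adjusted p = 0.00154). Of 34 tested pattern recognition receptors 6 rose and 3 fell in the knockout, against 14 and 5 in the wild type, and 3 rose without A1 sample 3 or A2 sample 1 of the knockout. The differences of C1qb and Tlr4 were not called when 3 samples with high visceral endoderm markers, A1 sample 3 and A2 sample 3 of the knockout and A2 sample 2 of the wild type, were left out.

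Of 31 tested lysosomal genes 8 rose and 1 fell in the knockout, against 20 and 0 in the wild type, with medians of 0.14 and 0.87, and the difference was called lower in 7 and higher in 0. Without the 3 samples with high visceral endoderm markers it was lower in 4. The 8 knockout rises all rose in the wild type. Ctsc, a protease that activates others, was kept at 1.68 ± 0.17 and 1.90 ± 0.17. Grn, the lysosomal protein progranulin, was 6.45, 6.71 and 6.70 in A1 and 6.45, 6.63 and 6.43 in A2 in the knockout, and 7.90, 8.02 and 8.28 in A1 and 9.89, 9.55 and 9.30 in A2 in the wild type. It was not called in the knockout (-0.12 ± 0.14, adjusted p = 0.979) and the difference was -1.63 ± 0.19 (adjusted p = 2.08e-08). Ctsb, cathepsin B, was 6.07, 5.96 and 6.18 in A1 and 6.48, 6.94 and 6.44 in A2 in the knockout, with steps of 0.55 ± 0.16 and 2.19 ± 0.16 and a difference of -1.64 ± 0.23 (adjusted p = 1.32e-06), its small knockout rise being lost without any of 4 knockout samples. Of 21 tested lipid handling genes the difference was called lower in 2 and higher in 0, and lower in 1 without sample 1 of wild-type A1 or of wild-type A2. One of them, Abca1, which exports cholesterol, was 3.80, 4.50 and 3.52 in A1 and 3.14, 2.94 and 3.30 in A2 in the knockout, and 3.98, 4.55 and 4.27 in A1 and 6.79, 6.60 and 6.83 in A2 in the wild type. Its estimate was below 0 in the knockout (-0.81 ± 0.29, adjusted p = 0.131) and the difference was -3.29 ± 0.41 (adjusted p = 6.93e-08).

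Ctss, cathepsin S, was the lysosomal gene that fell without Irf8. It was 6.49, 6.68 and 4.59 in A1 and 3.81, 3.09 and 3.94 in A2 in the knockout, and 7.81, 8.52 and 8.77 in A1 and 8.84, 8.51 and 8.64 in A2 in the wild type. The wild type stayed high at both stages, while the knockout A1 level was lower and fell further, with a step of -2.31 ± 0.24 (adjusted p = 5.94e-11) against a change of 0.30 ± 0.24 in the wild type that was not called (adjusted p = 0.563). The difference was -2.61 ± 0.34 (adjusted p = 1.91e-07). Blnk, an adaptor of B-cell and myeloid receptors, was 5.56, 5.78 and 4.44 in A1 and 3.46, 3.88 and 3.00 in A2 in the knockout. It fell there, with a step of -1.82 ± 0.30 (adjusted p = 1.38e-05), and was not called in the wild type (0.02 ± 0.30; difference -1.84 ± 0.43, adjusted p = 0.00775), a difference that was lost without A1 sample 2 or A2 sample 3 of the knockout.

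Some genes changed the same way in both genotypes and had a called difference towards a smaller knockout step. This held for 25 of the 236 shared rises and 17 of the 234 shared falls. Hmox1, the heme oxygenase, was 6.44, 6.63 and 6.52 in A1 and 8.20, 8.10 and 7.03 in A2 in the knockout, and 7.58, 7.77 and 7.64 in A1 and 11.09, 11.20 and 10.75 in A2 in the wild type. It rose by 1.25 ± 0.26 (adjusted p = 0.000593) against 3.35 ± 0.26, a difference of -2.10 ± 0.36 (adjusted p = 0.000119). Gas6, a ligand that bridges dying cells to macrophage receptors, was 2.60, 2.87 and 2.61 in A1 and 5.05, 5.37 and 3.87 in A2 in the knockout, and 2.47, 3.18 and 3.63 in A1 and 7.75, 7.66 and 7.31 in A2 in the wild type. It rose by 2.07 ± 0.38 (adjusted p = 7.03e-05) against 4.48 ± 0.38, and its difference of -2.41 ± 0.53 (adjusted p = 0.00447) was lost without knockout A2 sample 3. Hpgds, a prostaglandin D2 synthase, was higher in knockout than in wild-type A1 and lower in A2. It was 5.96, 5.74 and 5.44 in A1 and 7.10, 6.91 and 6.71 in A2 in the knockout, and 4.77, 4.59 and 5.10 in A1 and 7.89, 7.92 and 7.71 in A2 in the wild type, with steps of 1.19 ± 0.25 and 3.02 ± 0.25 and a difference of -1.82 ± 0.35 (adjusted p = 0.00067).

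**Figure D4:**
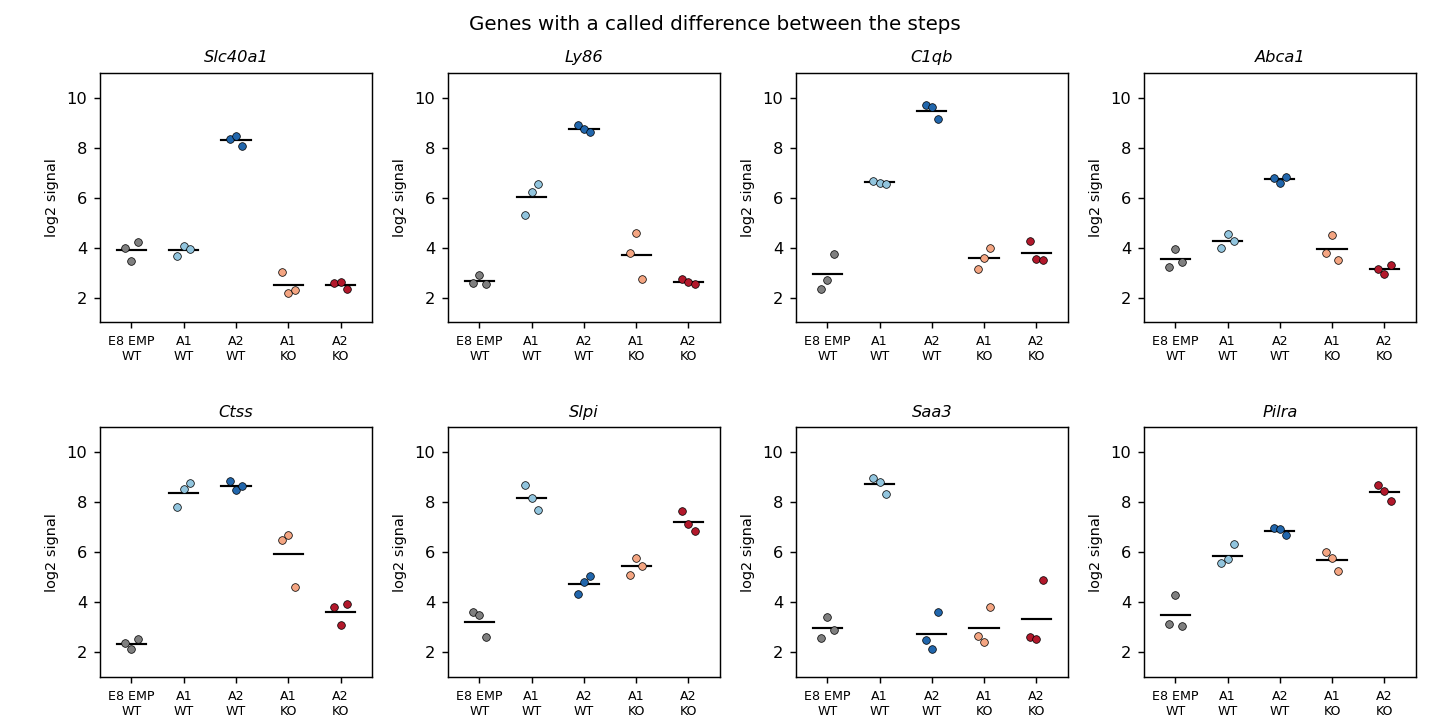
Log2 signal of 8 genes with a called difference of steps (vertical) in the samples of 5 groups (horizontal; EMP, erythro-myeloid progenitors; WT, wild type; KO, Irf8 knockout), 1 point per sample with the mean as a bar. Slc40a1, Ly86, C1qb and Abca1 rose in the wild type and not in the knockout, Ctss fell in the knockout, Slpi moved in opposite directions, Saa3 was highest in wild-type A1, and Pilra rose more in the knockout.

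The level in A1 and the level in A2 contributed differently to the 2 kinds of difference. Knockout and wild type were set against each other within A1, where 101 genes were higher in the knockout (0.591%) and 473 lower (2.77%), and within A2, where 644 were higher (3.77%) and 1074 lower (6.29%). These counts share their samples with the steps and describe where a difference arose. Of the 179 genes whose step was lower in the knockout, 169 were called lower in knockout A2 and 30 lower in knockout A1. Of the 104 genes whose step was higher, 56 were called lower in knockout A1 and 42 higher in knockout A2. The count of 574 genes within A1 was 330 without wild-type A1 sample 3 and 344 without knockout A1 sample 3, and its split became 152 higher and 387 lower with each array centred on its median.

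Saa3, an acute-phase apolipoprotein of activated myeloid cells, had the largest difference of this kind. It was 2.63, 2.41 and 3.81 in A1 and 2.59, 2.52 and 4.88 in A2 in the knockout, and 8.98, 8.83 and 8.34 in A1 and 2.48, 2.12 and 3.60 in A2 in the wild type. The 3 wild-type A1 samples stood far above all others, so that its wild-type step was -5.98 ± 0.61, with a difference of 6.36 ± 0.87 (adjusted p = 6.46e-07). Prg4, a secreted lubricant protein of some macrophages, was 2.83, 2.53 and 3.24 in A1 and 3.03, 3.02 and 3.01 in A2 in the knockout and 7.13, 7.11 and 6.13 in A1 and 2.84, 3.03 and 3.25 in A2 in the wild type, with a difference of 3.90 ± 0.39 (adjusted p = 1.83e-10). Alox15, a lipoxygenase, differed by 4.31 ± 0.74 and Cxcl13, a chemokine, by 3.67 ± 0.55 (adjusted p = 0.000102 and 5.97e-06), both with every wild-type A1 sample above every other A1 and A2 sample. Gzmd, a granzyme of cytotoxic cells, differed by 4.35 ± 0.41 (adjusted p = 2.88e-11) in the same pattern, from wild-type A1 samples of 5.44, 7.78 and 6.34. For these 5 genes knockout A1 was called lower than wild-type A1, and the knockout step was not called.

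Fewer genes were called in the knockout step alone, or rose more there than in the wild type. Of the 323 knockout rises, 83 were not called in the wild type, 15 of them with a called difference, and of the 321 knockout falls, 84 were not called there, 9 with a called difference. Pilra, an inhibitory receptor of myeloid cells, was 6.01, 5.78 and 5.25 in A1 and 8.71, 8.46 and 8.04 in A2 in the knockout, and 5.58, 5.71 and 6.31 in A1 and 6.98, 6.91 and 6.67 in A2 in the wild type. It rose in both, by 2.73 ± 0.29 (adjusted p = 1.07e-10) and 0.99 ± 0.29 (adjusted p = 0.0131), with a difference of 1.74 ± 0.41 (adjusted p = 0.00851) that was lost without A1 sample 3 of either genotype. Ccl3, an inflammatory chemokine, was 7.91, 8.04 and 7.04 in A1 and 10.23, 10.11 and 9.69 in A2 in the knockout and rose by 2.35 ± 0.25 against 0.77 ± 0.25, with a difference of 1.57 ± 0.36 (adjusted p = 0.00698) that was lost without knockout A1 sample 3. The wild-type rises of Pilra and Ccl3 were each lost without some single wild-type samples. Slpi, a secreted protease inhibitor, was 5.08, 5.76 and 5.46 in A1 and 7.65, 7.14 and 6.84 in A2 in the knockout, and 8.68, 8.19 and 7.68 in A1 and 4.34, 4.81 and 5.04 in A2 in the wild type. The genotypes ran in opposite directions, by 1.78 ± 0.53 (adjusted p = 0.0407) and -3.45 ± 0.53 (adjusted p = 8.41e-07), and the difference was 5.23 ± 0.75 (adjusted p = 2.48e-06), although the knockout rise alone was lost without any 1 of 5 knockout samples. Trem1, an activating myeloid receptor, was 4.08, 3.91 and 3.71 in A1 and 5.14, 5.04 and 5.02 in A2 in the knockout, and 4.13, 3.66 and 4.09 in A1 and 2.58, 3.27 and 3.22 in A2 in the wild type, a difference of 2.10 ± 0.45 (adjusted p = 0.00304). Its 2 single steps were each lost without some samples of their own genotype. Of 26 tested Fc gamma, TREM and CD300 receptors 10 rose and 1 fell in the knockout, against 7 and 7 in the wild type, and the difference was called higher in 5 and lower in 0, a count that was 3 without any 1 of 7 of the 12 samples, namely A1 samples 2 and 3 and A2 samples 1 and 2 of the wild type and A1 sample 3 and A2 samples 1 and 2 of the knockout. Without the 3 samples with high visceral endoderm markers it was higher in 2 and lower in 1.

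In 4 further lists the counts of calls in the knockout were 0 or 1, near the shares of 1.89% and 1.88% of all tested genes that rose and fell, and nothing is read from them. Of 38 tested cell cycle genes 0 were called in either step or in their difference, with 0 at an unadjusted p under 0.05 in the knockout and 1 in the wild type, and with knockout changes from -0.35 to 0.36. Of 26 tested ribosome biogenesis genes 0 were called in the knockout, none of them at an unadjusted p under 0.05, with changes from -0.16 to 0.21. In the wild type 6 of those 26 fell, and 1 when each array was centred on its median, or without A1 sample 2 or A2 sample 3 of the wild type. It was 3 without A1 sample 1, A1 sample 3 or A2 sample 2 of the wild type. Of 35 tested interferon-stimulated genes 1 fell and 0 rose in the knockout, with 5 at an unadjusted p under 0.05 (limma), against 11 and 3 in the wild type. Without wild-type A1 sample 3 the 11 became 7. The one that fell was Zbp1, a sensor of nucleic acids, at -1.34 ± 0.32 in the knockout (adjusted p = 0.00397), a call lost without A1 sample 2 or A2 sample 3. The mean level of the interferon-stimulated list was 3.99, 3.94 and 3.71 in knockout A1 and 3.92, 3.64 and 3.50 in knockout A2, below each wild-type sample, which ran from 4.53 to 5.55 in A1 and from 4.70 to 4.78 in A2. Of 19 tested matrix metalloproteinases and inhibitors 0 were called in the knockout step, with 2 at an unadjusted p under 0.05, and Mmp8 and Mmp9, 2 proteases of migrating leukocytes, had knockout steps of 0.38 ± 0.46 and -0.25 ± 0.52.

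**Figure D5:**
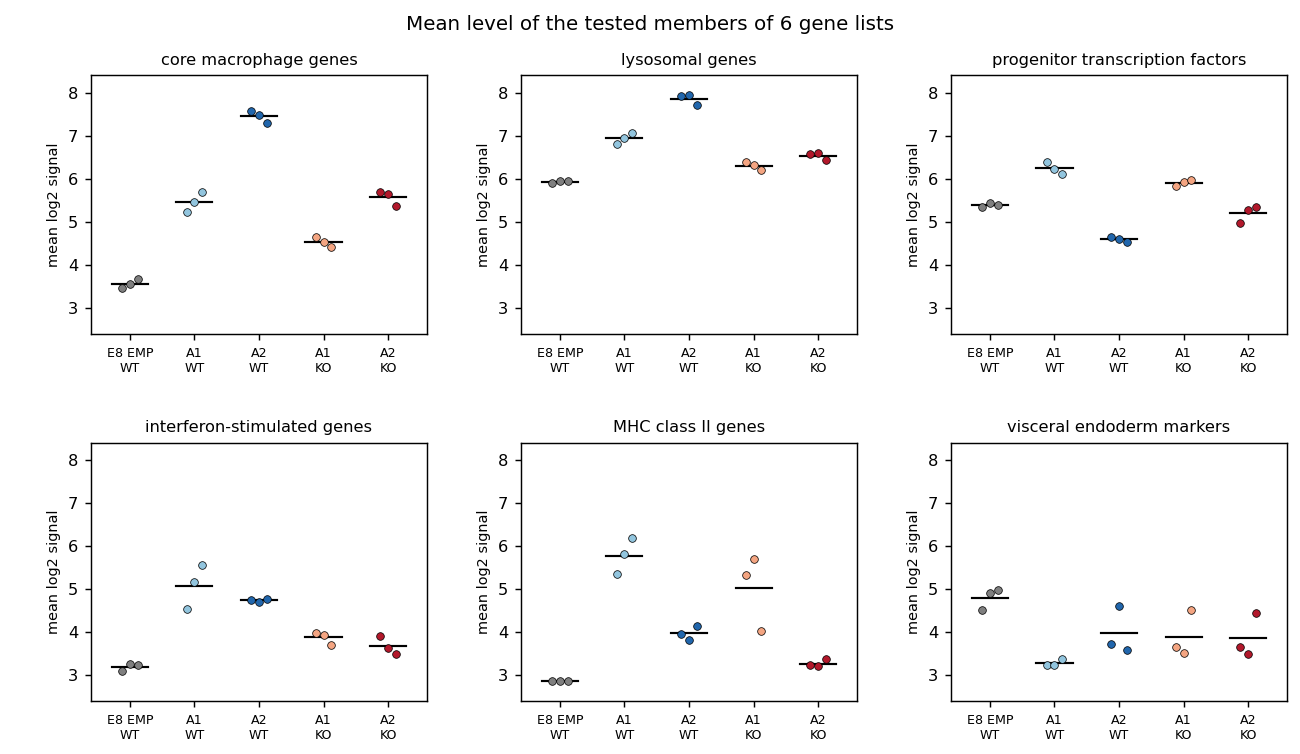
Mean log2 signal over the tested members of 6 gene lists (vertical) in the samples of 5 groups (horizontal; EMP, erythro-myeloid progenitors; WT, wild type; KO, Irf8 knockout), 1 point per sample with the mean as a bar. The core macrophage list lies at 5.37 to 5.70 in knockout A2 and at 5.24 to 5.69 in wild-type A1, and single samples of 3 groups stand out for visceral endoderm markers.

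Markers of other yolk sac cells were read in every sample. Visceral endoderm markers, 21 tested, had a mean level of 3.65, 3.52 and 4.52 in knockout A1, 3.65, 3.50 and 4.44 in knockout A2, 3.73, 4.61 and 3.58 in wild-type A2 and 3.25 to 3.37 in wild-type A1. Sample 3 of both knockout groups and sample 2 of wild-type A2 thus stood above the others, as did Afp, the alpha-fetoprotein of the endoderm, at 6.58, 6.00 and 7.26 in them. The wild-type rise of Afp and its difference of steps were lost when these 3 were left out. The 2 members that rose in the knockout, Dab2 and Ctsl, are expressed by macrophages as well. Without these 3 samples, a choice made after the values were seen, 227 genes rose and 237 fell in the knockout, and 351 genes were called the same way in both genotypes instead of 470. The difference of steps was then called in 119 genes instead of 283, of which 112 were among the 283, while the core macrophage count of 19 stayed. Of the progenitor factors 7 fell in the knockout and 0 had a called difference. Erythroid markers had a mean level of 4.39, 4.22 and 4.09 in knockout A1 and 3.63, 2.89 and 3.72 in knockout A2. Hbb-bh1, an embryonic globin, was 8.88, 8.72 and 8.00 in A1 and 7.75, 2.09 and 8.08 in A2 in the knockout, and 6.06, 6.82 and 6.49 in A1 and 8.48, 8.38 and 7.50 in A2 in the wild type. Its fall of -2.56 ± 0.74 and its difference of -4.23 ± 1.05 were both lost without knockout A2 sample 2, and the fall also without knockout A1 sample 1 or 2. The part of endoderm and red cell RNA in the other results was not tested.

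The upstream sequence of the altered and the kept genes was searched for the sites at which IRF8 is known to bind. RefSeq promoter windows of build GRCm38.p6 were held for 13188 of the 17076 tested genes, and the 250 bases before each start were searched on both strands. The ETS and IRF composite element was spelled as GGAA, any 2 bases, then GAAA. The core of the interferon-stimulated response element was GAAA, any 2 bases, then GAAA, and a PU.1 core was GAGG followed by AAGT, and the first and the second of these overlap in part. The composite element was in 5 of 120 genes that rose in the wild type with a smaller or absent knockout step (4.17%), in 5 of 162 that rose in both genotypes without a called difference (3.09%) and in 323 of all 13188 (2.45%). The response element core was in 2 of the 120 (1.67%), 8 of the 162 (4.94%) and 419 of all (3.18%), and the PU.1 core in 6 (5%), 7 (4.32%) and 388 (2.94%). Among the falls, the composite element was in 0 of 70 genes with a smaller or absent knockout step and in 8 of 166 that fell in both without a called difference (4.82%), and the response element core was in 4 (5.71%) and 12 (7.23%) of these, the highest share of the 4 classes. The PU.1 core was in 4 (5.71%) and 5 (3.01%). The counts are small and give a description only. Of the named genes with a match and a called difference of steps, 3 are shown as examples, chosen after their values were seen, with the strand of the gene printed and the matched letters in capitals. Of them, Timd4 is among the 120 genes, while Ctss and Pilra belong to none of the 4 classes. Timd4 lies on the plus strand (chr11:46810687-46810776), Ctss on the plus strand (chr3:95526725-95526785) and Pilra on the minus strand (chr5:137836438-137836527). Timd4 and Pilra show the composite element, at -72 and -209 from the start, and Ctss shows the response element core, at -21. Pilra also has the response element core at -178, which lies in the printed stretch in lower case.
Timd4: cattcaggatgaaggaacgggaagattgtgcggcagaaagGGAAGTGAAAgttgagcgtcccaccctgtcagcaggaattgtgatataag
Ctss: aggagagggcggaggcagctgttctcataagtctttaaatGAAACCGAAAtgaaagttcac
Pilra: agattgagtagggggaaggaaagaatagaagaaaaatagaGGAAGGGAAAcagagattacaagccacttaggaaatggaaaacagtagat
A match is not a bound site, and the search says nothing of sequence outside these windows.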

How the data were processed

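RNA of sorted cells (Arcturus PicoPure extraction, per the labels' protocols) was hybridised to Affymetrix arrays. The authors deposited log2 expression values, and RMA and Affymetrix Expression Console are named in the submitters' processing notes, with versions and genome build not given in the sources used here. Of 41345 probes, 25335 were annotated, 23521 with exactly 1 gene symbol and 1814 with several. The brightest probe stood for each of 22180 genes, 1082 of which had several probes. Genes above 3.041, the table's median, in at least 2 samples were tested, 17076 in all. The 2 runs of knockout A2 sample 2 correlated at 0.984, differed by a median of 0.20 against at least 0.24 between different samples of that group, and were averaged. Deposited log2 values of all 80 samples in 27 groups were fitted with limma 3.58.1 in R 4.3.3 (lmFit, eBayes with trend, 53 residual degrees of freedom), with Benjamini-Hochberg adjustment over all tested genes for each contrast. The contrasts were A2 minus A1 in each genotype, the difference of these steps, and knockout minus wild type within A1 and within A2. The steps and their difference share samples.

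Genes named were the gate genes, Irf8, Spi1, Csf1r, Mmp8 and Mmp9, the largest changes and differences, and the members of each list with the smallest adjusted p. The members and lists were chosen with earlier results of these data known. Alternatives covered the samples in the fit, a block, weights, the variance prior, scaling, the filter, probes, the repeated run and each sample left out. The fit was tested on simulated data. Promoter windows came from RefSeq, build GRCm38.p6.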

Additional observations from a re-analysis of the deposited data

Results flagged for a closer look

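The genotypes differed in the step from A1 to A2 for the genes below by the limma test of the difference itself (adjusted p at most 0.05), and each value is the log2 knockout step minus the log2 wild-type step. Among genes that rose in the wild type and were not called in the knockout, it was Abca1 at -3.29, Afp at -2.68, C1qa at -2.14, C1qb at -2.68, Gap43 at -3.54, Grn at -1.63, Id2 at -2.24, Id3 at -3.50, Il13ra1 at -2.18, Ly86 at -3.80, Lyve1 at -4.95, P2ry12 at -3.15, Slc40a1 at -4.41, Timd4 at -2.38 and Tlr4 at -1.75. The difference of Afp, an endoderm marker, was lost in 9 of 23 alternatives, among them leaving out the 3 samples with high visceral endoderm markers, and ranged from -3.61 to -1.52. The genes that rose in both genotypes were Ctsb at -1.64, Ctsl at -1.18, Gas6 at -2.41, Hmox1 at -2.10 and Hpgds at -1.82. Further negative differences were those of Blnk at -1.84, Ctss at -2.61, Hbb-bh1 at -4.23 and Igf1 at -3.04, of which Igf1 rose in the wild type and fell in the knockout, and the others fell in the knockout alone. The fall and the difference of Hbb-bh1 were both lost without knockout A2 sample 2, and the difference of Blnk without some single knockout samples.

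Among genes that fell in the wild type and were not called in the knockout, the difference was Alox15 at 4.31, C4b at 2.68, Cxcl13 at 3.67, Gzmd at 4.35, Prg4 at 3.90 and Saa3 at 6.36. The remaining positive differences were those of Ccl3 at 1.57, Gata2 at 2.29, Gfi1b at 2.46, Kit at 1.82, Pilra at 1.74, Slpi at 5.23 and Trem1 at 2.10. Kit, Gata2 and Gfi1b fell in both genotypes, Ccl3 and Pilra rose in both, and Slpi and Trem1 fell in the wild type and rose in the knockout. The differences of Kit, Gata2 and Gfi1b were not called without the 3 samples with high visceral endoderm markers. The wild-type rise of Ccl3 was lost without any 1 of 4 wild-type samples, and that of Pilra without any 1 of 3. Kit is one of the genes by which such populations are usually sorted, and its values check the labels only. The knockout rise of Slpi and both single steps of Trem1 were lost under several alternatives.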

How the results depend on the processing

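No called change of a named gene changed sign under any alternative run. With array weights 1077 genes were called in the knockout step, 3295 in the wild-type step, 860 in the difference of steps, 1485 between genotypes in A1 and 3199 in A2, and 755 the same way in both steps, against 644, 1943, 283, 574, 1718 and 470. With only the A1 and A2 groups in the fit, 529 genes were called in the difference, 988 in A1 and 2835 in A2. The cause was not tested. Leaving out the 3 samples with high visceral endoderm markers, chosen after seeing the data, gave 119, 342 and 925 for these, with fewer samples in the fit, and moved the monocyte markers in the knockout step from 4 higher and 1 lower to 0 and 2. Without each of the 12 samples in turn, the counts ranged from 444 to 641 in the knockout step, 1525 to 1948 in the wild-type step, 197 to 267 in the difference, 330 to 580 in A1, 1183 to 1710 in A2 and 337 to 464 for genes called the same way in both. Same-numbered A1 and A2 samples had correlated deviations of 0.03, 0.07 and 0.06 in the knockout, each the highest for its number. In the wild type these were -0.03, 0.02 and -0.01. Sample 3 of both knockout groups also shared high visceral endoderm markers. No label states a pairing, and the main fit used none. Whether same-numbered knockout samples shared a preparation was not tested. With the replicate block, 638 genes were called in the knockout step, 623 of them shared with the 644, and 297 in the difference, while the knockout rise of Slpi and the wild-type fall of Trem1 were not called. Median centring moved the median change of all tested genes from -0.02 to 0.08 in the wild-type step. In the knockout step it moved from -0.01 to 0.04. The number of arrays, 3 samples a group, and signal near the array median limit what could be called.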

Other observations

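Several lists not described above also held calls in the step without Irf8. Over all tested genes 1.89% rose and 1.88% fell in that step, and nothing is read from the small counts of the chemokine ligands and receptors. Of 20 tested iron and heme genes 3 rose and 0 fell in the knockout, all 3 of which rose in the wild type, where 8 rose and 3 fell. Of 19 tested TAM and phosphatidylserine receptor genes 5 rose and 0 fell, all 5 shared with the wild type, where 9 rose and 1 fell, and the difference was called lower in 3. That count was 1 without knockout A2 sample 3 or without the 3 samples with high visceral endoderm markers, 2 without any 1 of the 6 wild-type samples or of the 3 knockout A1 samples, and 4 without knockout A2 sample 1. Of 24 tested chemokine ligands 2 rose and 2 fell in the knockout, with 1 fall without any 1 of the 3 A1 samples or of A2 samples 1 and 2, and their mean level was 3.59 to 3.84 in knockout A1 against 4.96 to 5.36 in wild-type A1. Of 17 tested chemokine receptors 2 rose and 1 fell in the knockout, all shared with the wild type. The rises include that of Cx3cr1, whose values check the labels only.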
